A study of Mus musculus with 24 samples.

Results

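Heavy polysomes are the part of a sucrose gradient in which mRNAs carry the most ribosomes, and the comparison described here sets the heavy polysomes of halofuginone-treated cells against those of vehicle-treated cells. Its members are the 6 of 24 libraries whose titles name the heavy pool, 3 from cells given halofuginone and 3 from cells given PBS. The cells were NIH/3T3, an established line of mouse fibroblasts, kept at 37 °C for 24 h with halofuginone at 100 nM or with PBS alone, according to the labels. The other 18 libraries are ribosome-free RNA, light polysomes and total RNA from the same treatments. Triplicates are described as biological, yet no source links a column of the table to its culture. The p-values therefore measure only the scatter of these libraries, which may be technical.

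The column headers split the 6 libraries into 2 sets. In set A the pools span gradient fractions 7 to 11, and in the other set, with replicate tags 2 and 4, they span fractions 14 to 21. The header of the set A halofuginone library gives 50 nM where the labels give 100 nM for every halofuginone sample, and the dose of that library is not settled here. Each halofuginone library is shown beside the vehicle library of its own tag, as the set A, tag 2 and tag 4 pairs, and values are listed in that order throughout.

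Halofuginone inhibits Eprs, the synthetase that loads glutamate and proline onto their tRNAs, at its proline site. Uncharged tRNA activates the kinase Gcn2, which phosphorylates the initiation factor eIF2. That lowers initiation in general, while translation of Atf4, whose mRNA has upstream reading frames, goes up. ATF4 is a transcription factor that binds composite C/EBP-ATF elements (CARE) and turns on genes of amino acid synthesis, amino acid uptake and tRNA charging. In fibroblasts, collagen chains are among the proteins richest in proline, and halofuginone is best known there for lowering collagen production.

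Depth lay between 13.4 and 22.5 megacounts per library, of which 0.276% to 0.746% fell on mitochondrially encoded RNAs. The libraries are relative: no spike-in is mentioned, so a value is a share of its pool, and fewer cells, less RNA per cell and fewer ribosome-bound copies cannot be told apart. All 8 fibroblast markers reached 5 CPM (the count scaled to the size of its library) in at least 1 library. None of the 7 epithelial, 5 endothelial and 5 skeletal muscle markers did, nor did 5 of 6 leukocyte markers (Cd68 being the exception), 3 of 5 adipocyte markers (Fabp4 and Lpl being the exceptions) and 3 of 5 neuronal markers (Tubb3 and Map2 being the exceptions). The summed adipocyte markers were at 79.2 to 349 CPM in vehicle and 54.3 to 179 CPM with halofuginone, and their part in any result was not tested.

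The CARE letters are shown because ATF4 binds them and because several genes described below hold them near their start. The motif TGATGNAA was searched on both strands from 250 bases before to 50 bases after each RefSeq gene start (GRCm38.p6), with no allowance for overlap with other motifs. It was present in 237 of the 9054 tested genes that had a window, or 2.62%. It was found in 7 of 17 windows of the ATF4 circuit list (41.2%), 5 of 12 of the cytosolic synthetases (41.7%), 3 of 16 of amino acid synthesis and 2 of 14 of the amino acid transporters. The stretches below are written 5′ to 3′ along the gene's strand, with the motif, or its reverse complement, in capitals.
Slc7a11: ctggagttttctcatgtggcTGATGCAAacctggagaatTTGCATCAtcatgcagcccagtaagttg
Chac1: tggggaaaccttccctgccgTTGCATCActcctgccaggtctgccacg
Vldlr: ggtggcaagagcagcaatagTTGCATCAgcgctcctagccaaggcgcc
Asns: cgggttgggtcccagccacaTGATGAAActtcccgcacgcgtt
Pycr1: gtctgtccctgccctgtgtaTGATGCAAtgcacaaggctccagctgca
Gars: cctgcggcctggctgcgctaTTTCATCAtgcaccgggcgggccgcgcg
Tars: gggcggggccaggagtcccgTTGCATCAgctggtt
Avil: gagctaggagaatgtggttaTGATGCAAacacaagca

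These stretches lie at chr3:50443633-50443699 on the minus strand (Slc7a11), chr2:119351029-119351076 on the plus strand (Chac1), chr19:27216800-27216847 on the plus strand (Vldlr) and chr6:7693210-7693252 on the minus strand (Asns). The others lie at chr11:120643824-120643871 on the minus strand (Pycr1), chr6:55037951-55037998 on the plus strand (Gars), chr15:11399659-11399693 on the minus strand (Tars) and chr10:127000672-127000708 on the plus strand (Avil). Slc7a11 holds the motif in both orientations, beginning 66 and 47 bases before the annotated start. In Avil it begins 17 bases before the start. Presence of these letters is a description and did not go with a higher value in general: the median log2 fold change in heavy polysomes was -0.01 over the 237 genes with the motif and 0.02 over the 8817 without it.

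Across all genes, no mRNA passed the test in heavy polysomes. The edgeR quasi-likelihood test, without pairing, left 0 of 12222 genes (0%) under an adjusted p of 0.05, and its smallest adjusted p was 0.205. At an unadjusted p under 0.05 there were 236 genes higher (1.93%) and 518 lower (4.24%) with halofuginone. DESeq2 called 78 genes (0.639%), 29 higher (0.237%) and 49 lower (0.401%). Of genes described below, it called higher Car6, Avil, Taf7l, Akr1b7, Cdsn, Atp2a3, Gdap1l1, Cox6a2, Cd74, Tenm4, Slc7a11, Aldh1l2 and Ero1l. Those it called lower were, among matrix genes, Col6a1, Lox, Pcolce, Emilin1, Lama4, Dpt, Plat and Serpine2. Among sterol and lipid genes they were Lss, Dhcr7, Tm7sf2, Acss2 and Scd2. The others were C3, Cxcl12, Ddx58, Igsf10, Cacna1g, Angpt4, Lrrc17 and Rspo2. With the tag as a block edgeR called 2 genes (0.0164%), Car6 and Avil, both higher, and 703 higher (5.75%) and 1253 lower (10.3%) at an unadjusted p under 0.05. Below, a gene is therefore said to have been higher or lower. A change is claimed only for those 2, and only under the block, since neither passed the main test. Their vehicle counts were low, at 11, 7 and 25 for Car6 and 8, 3 and 16 for Avil. Both passed the expression filter through the halofuginone libraries, where they were high.

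The 3 pairs differed from one another more than the treatments did. The tag accounted for a median of 63.5% of a gene's sum of squares, treatment for 13.6% and the rest for 14.6%. The tag has more levels than treatment, so it takes a larger share even where neither has an effect. The pairs also differed in how far their libraries stood apart: the SD of the log2 ratio over 12222 genes was 0.435 in set A, 0.419 in tag 2 and 0.924 in tag 4. At least a 2-fold difference was seen for 128 genes higher and 285 lower in set A, for 90 and 186 in tag 2, and for 904 and 1548 in tag 4. Across 9769 genes of at least 5 CPM, the log2 ratios of set A correlated with those of tag 4 at 0.643 and with those of tag 2 at 0.52, and tag 2 with tag 4 at 0.415 (Pearson, across genes, a description). Of all genes, 2531 (20.7%) were higher and 3023 (24.7%) lower in all 3 pairs, and in 660 (5.4%) and 863 (7.06%) the groups did not overlap. A difference of 2-fold or more in all 3 pairs was seen for 26 genes higher (0.213%) and 70 lower (0.573%).

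**Figure D1:**
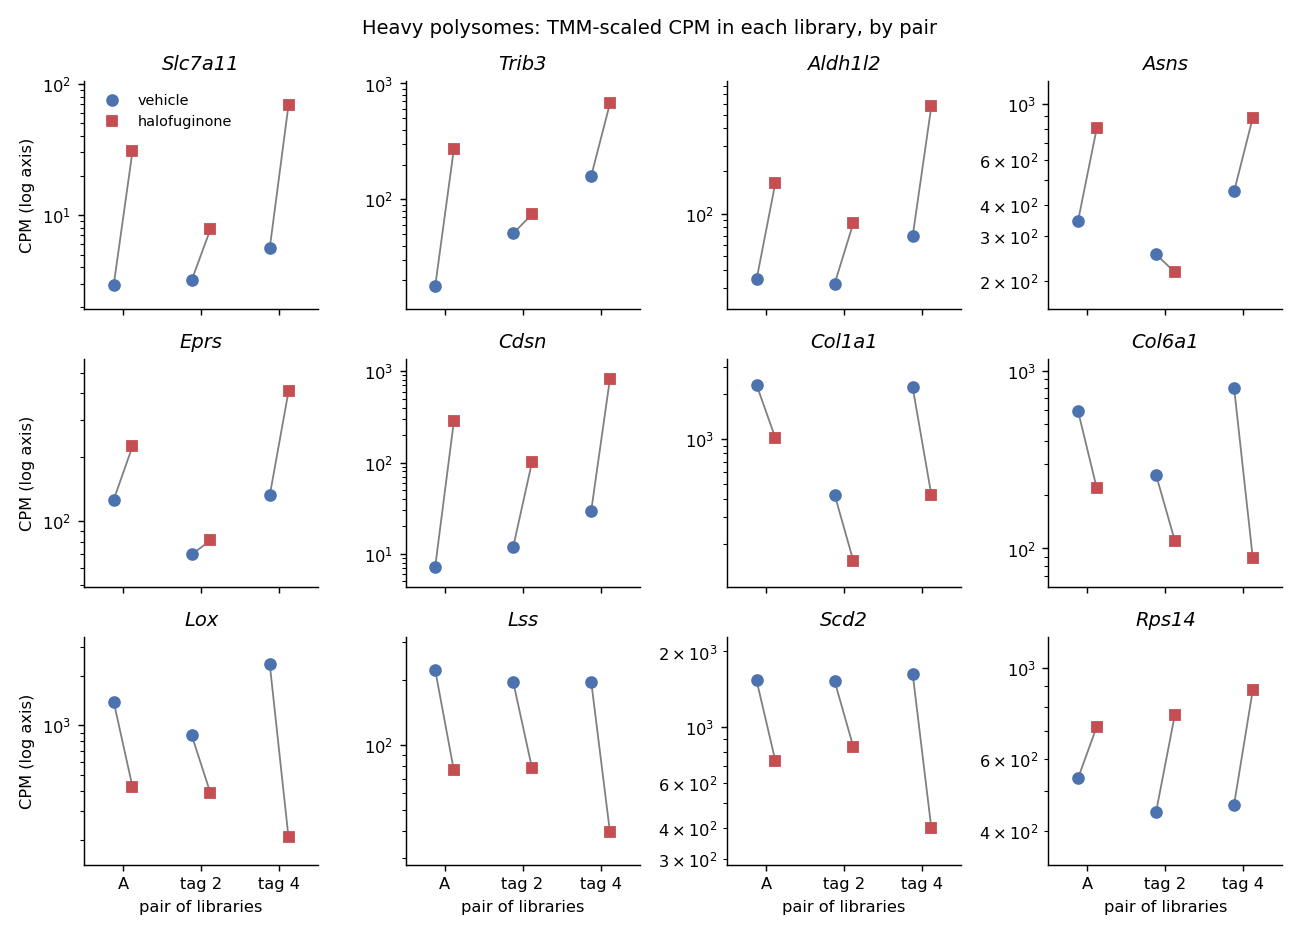
TMM-scaled CPM (log axis, with a scale of its own in each panel) of 12 genes in the 6 heavy polysome libraries. Circles are vehicle, squares halofuginone, and a line joins the libraries of 1 pair (set A, tag 2, tag 4). Slc7a11, Trib3, Aldh1l2, Eprs, Cdsn and Rps14 were higher with halofuginone in every pair, Asns was lower in tag 2 only, and Col1a1, Col6a1, Lox, Lss and Scd2 were lower in every pair.

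The ATF4 circuit was higher with halofuginone in set A and tag 4 and near 0 in tag 2. Of 18 tested genes of this list (Gdf15 and Fgf21 were too low to test), 16 lay above 0 (51.6% of all genes did, and 48.4% lay below), with a median log2 fold change of 0.77 against 0.02 over all genes. The median by pair was 1.08, -0.11 and 1.12. In tag 2, 8 of the 18 were above 0 (47.7% of all genes were), against 16 in set A (47.2%) and 15 in tag 4 (50.1%). None was called by edgeR, and 7 were higher in all 3 pairs.

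Atf4 itself (chromosome 15, 80255184 to 80257541), the regulator of the circuit, stood at 300.3, 685 and 759 CPM in vehicle and 664, 454 and 1727 CPM with halofuginone. Its groups overlapped, since tag 2 went the other way, with pair log2 ratios of 1.14, -0.59 and 1.19. The edgeR log2 fold change was 0.71 ± 0.55 (SE, adjusted p = 0.867). Ddit3, the stress transcription factor CHOP, showed the same division, at 41, 69.8 and 121 CPM in vehicle and 98.5, 37.8 and 602 CPM with halofuginone, and a log2 fold change of 1.67 ± 0.92 (by edgeR, adjusted p = 0.846). Chac1, which breaks down glutathione, was at 17.1, 40.8 and 48.8 CPM in vehicle and 59.1, 23.1 and 114 CPM with halofuginone. Its tag 2 halofuginone library lay below its partner while those of set A and tag 4 lay above, and its log2 fold change was 0.88 ± 0.59 (by edgeR, adjusted p = 0.856).

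Trib3, a pseudokinase that feeds back on ATF4, was higher in every pair. Its values were 17.8, 50.8 and 159 CPM in vehicle and 273, 74.3 and 674 CPM with halofuginone, so that the vehicle library of tag 4 lay above the halofuginone library of tag 2. The pair log2 ratios were 3.91, 0.54 and 2.08, and the log2 fold change was 2.17 ± 0.93 (by edgeR, adjusted p = 0.805). Eif4ebp1, the repressor of cap-dependent initiation, was at 128, 142 and 152 CPM in vehicle and 259.5, 177 and 318 CPM with halofuginone, with no overlap between groups and a log2 fold change of 0.84 ± 0.28 (by edgeR, adjusted p = 0.792). Xbp1, the transcription factor of the ER branch of the stress response, was the member with the lowest value, at 70.4, 80.1 and 48.7 CPM in vehicle and 25.2, 41.5 and 41.2 CPM with halofuginone. All 3 halofuginone libraries lay below all 3 vehicle libraries, with a log2 fold change of -0.89 ± 0.30 (by edgeR, adjusted p = 0.792).

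Genes of amino acid synthesis were above 0 for 16 of 19 tested members (Pycr3, Cbs and Prodh were not tested), with a median of 0.74, or 0.89, -0.13 and 1.10 by pair. Of them, 7 were higher in all 3 pairs, against 20.7% of all genes. Aldh1l2, the mitochondrial enzyme of the folate cycle, was at 34.4, 32 and 69.1 CPM in vehicle and 164, 85.9 and 576 CPM with halofuginone. Every halofuginone value lay above every vehicle value, and the log2 fold change was 2.61 ± 0.70 (by edgeR, adjusted p = 0.792). Pycr1, which catalyses the last step of proline synthesis in mitochondria, was at 19, 18.7 and 49.8 CPM in vehicle and 98.2, 44.6 and 167 CPM with halofuginone. It was higher in each pair, with ratios of 2.34, 1.23 and 1.73, though the tag 2 halofuginone library did not reach the tag 4 vehicle library. Its log2 fold change was 1.82 ± 0.56 (by edgeR, adjusted p = 0.792). Asns, asparagine synthetase, was at 345, 255 and 451 CPM in vehicle and 802, 217 and 884 CPM with halofuginone, with ratios of 1.22, -0.23 and 0.97 and a log2 fold change of 0.86 ± 0.50 (by edgeR, adjusted p = 0.854). Aldh4a1, which acts in proline breakdown, was the 1 member lower in all pairs, with ratios of -0.77, -0.50 and -1.93.

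Amino acid transporters showed no common direction. Of 19 tested, 10 were above 0, and the median was 0.06. Slc7a11, the cystine-glutamate exchanger whose window holds the motif in both orientations, stood apart at 2.94, 3.2 and 5.63 CPM in vehicle and 30.5, 7.83 and 69.1 CPM with halofuginone. The halofuginone libraries did not overlap vehicle, and the pair log2 ratios were 3.17, 1.17 and 3.50. The log2 fold change of 3.20 ± 0.73 missed the edgeR threshold (adjusted p = 0.767) and passed that of DESeq2 (adjusted p = 0.00103). Slc38a2, a transporter of small neutral amino acids, went the other way, at 334, 342 and 333 CPM in vehicle and 249, 231 and 212 CPM with halofuginone, with a log2 fold change of -0.54 ± 0.22 (by edgeR, adjusted p = 0.792). In all 3 pairs 8 transporters were lower, and Slc7a11 alone was higher in all 3.

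The 20 cytosolic aminoacyl-tRNA synthetases were divided by pair in the way of the ATF4 circuit. In set A 18 of 20 and in tag 4 all 20 were above 0, and in tag 2 only 3 were, with pair medians of 0.70, -0.27 and 1.18. Eprs (chromosome 1, 185363044 to 185428360), the target of halofuginone, was 1 of those 3, at 126, 69.6 and 132 CPM in vehicle and 224, 81 and 407 CPM with halofuginone. Its log2 fold change was 1.12 ± 0.55 (by edgeR, adjusted p = 0.834), and the groups overlapped because the tag 2 halofuginone library was below the set A and tag 4 vehicle libraries. Lars, the leucyl synthetase, was at 93.5, 49.1 and 84.1 CPM in vehicle and 152, 54.7 and 277 CPM with halofuginone with a log2 fold change of 1.09 ± 0.54 (by edgeR, adjusted p = 0.841). Gars and Tars, whose promoters are printed above, had pair ratios of 0.86, -0.45 and 1.10 and of 0.70, -0.56 and 1.41. A list of eIF2 pathway genes and of mRNAs with upstream reading frames was at a median of 0.03 over 13 genes. Atf4, whose mRNA also has such frames, was counted in the ATF4 circuit list and not here. Eif2s1, the eIF2 alpha subunit, was at 0.62 ± 0.30 and Bace1, a membrane protease, at -0.63 ± 0.33 (edgeR adjusted p = 0.827 and 0.846).

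**Figure D2:**
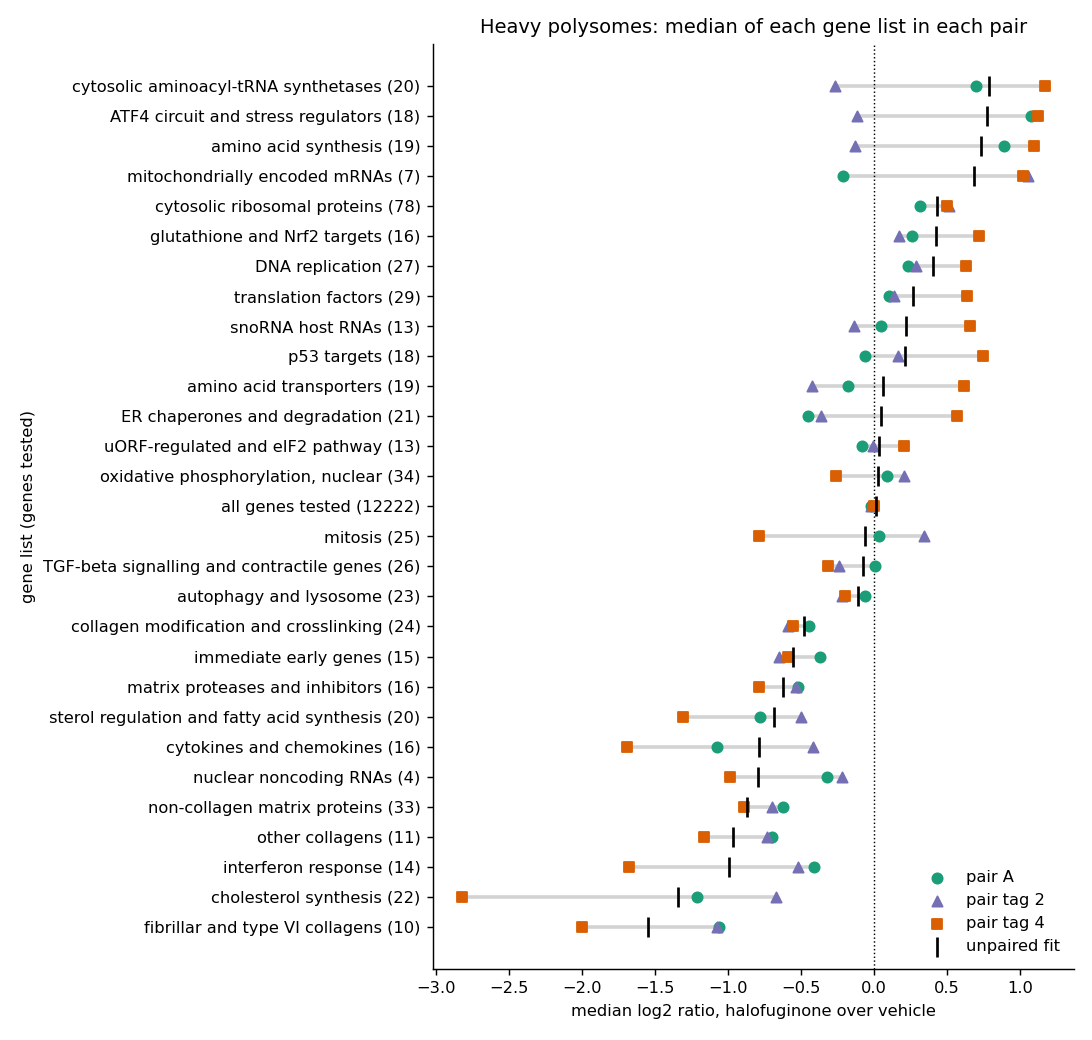
Median log2 ratio of halofuginone over vehicle for the genes of 28 lists and for all tested genes, in each pair (circle set A, triangle tag 2, square tag 4) and in the unpaired fit (black bar). The ATF4 circuit, amino acid synthesis and synthetase lists were above 0 in set A and tag 4 and below 0 in tag 2, while collagens and cholesterol synthesis were below 0 in all 3.

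Several of the largest differences were on genes that vehicle cells hardly carried on heavy polysomes. Car6 (chromosome 4, 150187015 to 150201332), a secreted carbonic anhydrase of saliva, was at 0.506, 0.295 and 1.88 CPM in vehicle and 41.6, 20.2 and 149 CPM with halofuginone, from 43 counts in all in vehicle and 3504 with halofuginone. Its pair log2 ratios were 5.39, 4.70 and 5.97, and it was called with the tag as a block, at 6.26 ± 0.22 (edgeR adjusted p = 0.00127), though not without it (6.396 ± 1.01, adjusted p = 0.767). Avil (chromosome 10, 127000709 to 127020994), the actin-binding protein advillin, was at 0.368, 0.126 and 1.2 CPM in vehicle and 21.6, 5.99 and 42.3 CPM with halofuginone, and the blocked fit called it at 5.45 ± 0.28 (edgeR adjusted p = 0.00702). Without the block its log2 fold change was 5.47 ± 0.96 (by edgeR, adjusted p = 0.767). Both genes were thus higher in all 3 pairs, tag 2 included, and their groups did not overlap. They were higher outside heavy polysomes too. Unpaired log2 fold changes of Car6 and Avil were 6.02 ± 1.19 and 2.74 ± 0.60 in light polysomes. In total RNA they were 7.64 ± 1.18 and 4.13 ± 0.44.

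Cdsn (chromosome 17, 35552128 to 35557180), corneodesmosin, an adhesion protein of cornified skin, was at 7.18, 11.9 and 29.7 CPM in vehicle and 285, 100.2 and 825 CPM with halofuginone, the highest CPM among the 10 genes with the largest positive fold change. Its log2 fold change was 4.64 ± 0.89 (by edgeR, adjusted p = 0.767), and DESeq2 called it (adjusted p = 2.19e-07). Taf7l, a germ cell and adipocyte relative of a TFIID subunit, had 0 counts in all 3 vehicle libraries and 81, 98 and 116 with halofuginone. Set against a floor of 3 counts over the vehicle group (0.051 CPM), its pooled 5.32 CPM was 104-fold higher. That ratio takes no account of the spread between libraries and is not a tested bound. Taf7l passed the expression filter only through the halofuginone libraries. Its adjusted p, 0.205, was the smallest of the unpaired edgeR test, shared with Akr1b7, an aldo-keto reductase chosen here for that value, at 0, 0.0422 and 0 CPM in vehicle and 4.88, 2.72 and 7.29 CPM with halofuginone. Of the other genes with the largest fold changes, Atp2a3, a calcium pump, was at 0.046, 0.211 and 0.375 CPM in vehicle and 7.67, 2.48 and 14.4 CPM with halofuginone, and Tenm4, a teneurin of cell adhesion, at 3.86, 2.53 and 5.93 CPM in vehicle and 20.3, 12.5 and 90.9 CPM with halofuginone. Cd74, the invariant chain of antigen presentation, was at 0.092, 0.295 and 1.43 CPM in vehicle and 3.09, 4.66 and 15.6 CPM with halofuginone and Gdap1l1 at 0.322, 0.548 and 2.7 CPM in vehicle and 18.4, 7.43 and 31.1 CPM with halofuginone. Ostn, a secreted peptide of bone and muscle, and Cox6a2, a heart and muscle cytochrome oxidase subunit, had log2 fold changes of 5.19 ± 1.502 and 3.90 ± 0.88 (edgeR adjusted p = 0.792 and 0.767). Most of the Ostn signal came from tag 4, with 22, 22 and 205 counts in the halofuginone libraries and 1, 0 and 6 in vehicle. None of the 10 genes described here, Akr1b7 not counted, overlapped between groups, which was part of the rule that named them.

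Matrix genes were on the lower side. All 10 tested fibrillar and type VI collagens (Col2a1 was too low) were lower in every pair, against 24.7% of all genes, with a median of -1.55, or -1.06, -1.08 and -2.0 by pair. Of these, 1 had groups that did not overlap, which is near the 7.06% of all genes. None was called by edgeR on all 3 pairs, with or without the block, and DESeq2 called 1, Col6a1 (adjusted p = 0.0196). Col1a1 (chromosome 11, 94936224 to 94953042), the alpha 1 chain of type I collagen, was at 2292, 425 and 2213 CPM in vehicle and 1016, 154 and 423 CPM with halofuginone. Vehicle libraries themselves differed widely, so the tag 2 vehicle library lay just above the tag 4 halofuginone library and below that of set A. The log2 fold change was -1.63 ± 0.78 (by edgeR, adjusted p = 0.827), and the pair ratios were -1.17, -1.47 and -2.39.

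Col1a2, its partner chain, was at 4058, 1019.6 and 3510.4 CPM in vehicle and 2379, 763 and 1756 CPM with halofuginone, with a log2 fold change of -0.81 ± 0.56 (by edgeR, adjusted p = 0.859). Col3a1, the type III chain, was at 277, 24.5 and 425 CPM in vehicle and 136, 11.8 and 56.6 CPM with halofuginone, with -1.83 ± 1.05 (edgeR adjusted p = 0.846). Tag 2 held the lowest collagen levels of either group for both genes. Col6a1 (chromosome 10, 76708792 to 76726168), a chain of the beaded type VI filaments, did not overlap, at 593, 259.6 and 800.5 CPM in vehicle and 218, 111 and 88.4 CPM with halofuginone, and its log2 fold change was -1.98 ± 0.50 (by edgeR, adjusted p = 0.792). Col11a1, a minor fibrillar chain, was low throughout, at 6.21, 1.35 and 5.93 CPM in vehicle and 1.39, 0.594 and 0.591 CPM with halofuginone, with -2.36 ± 0.69 (edgeR adjusted p = 0.792). Of 11 other collagens, 9 were lower in all pairs. The exceptions were the basement membrane chains Col4a1 and Col4a2, at 0.63 and 0.82 in tag 4. The collagens are rich in proline, with a median of 16.1% in the 10 fibrillar and type VI chains against 5.50% over all genes with a coding sequence.

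Genes that modify and crosslink collagen had a median of -0.48, and 19 of 24 were lower in all pairs. Lox, lysyl oxidase, was at 1388, 869 and 2349 CPM in vehicle and 424, 387 and 208 CPM with halofuginone, with no overlap between groups and a log2 fold change of -2.18 ± 0.44 (by edgeR, adjusted p = 0.767). DESeq2 called it (adjusted p = 0.000971). Pcolce, which helps to cut the procollagen C end, was at 1472, 1159.9 and 2389 CPM in vehicle and 854, 534 and 408 CPM with halofuginone, also without overlap, and at -1.48 ± 0.38 (edgeR adjusted p = 0.792). By contrast Plod2, a lysyl hydroxylase, had pair ratios of -0.14, 0.36 and 1.41.

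Among 33 other matrix proteins 23 were lower in all pairs and 1 higher, Ltbp4, a latent TGF-beta binding protein, with a median of -0.87. Emilin1, of elastic fibres, was at 117, 94.3 and 151 CPM in vehicle and 62.6, 47.1 and 36.7 CPM with halofuginone, and Lama4, a laminin chain, at 113, 80.02 and 190.2 CPM in vehicle and 44.4, 48.1 and 25.5 CPM with halofuginone. Neither overlapped, and their log2 fold changes were -1.31 ± 0.30 and -1.70 ± 0.39 (edgeR adjusted p = 0.767 and 0.767). The small leucine-rich proteoglycan Lum was at 4.65, 3.84 and 74.5 CPM in vehicle and 1.29, 1.49 and 3.29 CPM with halofuginone and dermatopontin, Dpt, at 3.86, 5.9 and 50.4 CPM in vehicle and 1.39, 1.98 and 0.657 CPM with halofuginone, so that most of the vehicle signal of both came from tag 4. Fn1, fibronectin, was at 3278, 553 and 579 CPM in vehicle and 2364, 413 and 1443 CPM with halofuginone. It was lower in set A and tag 2 and higher in tag 4 (ratios -0.47, -0.42 and 1.32), and its log2 fold change of -0.06 ± 0.81 (by edgeR, adjusted p = 0.994) turned to 0.12 with the tag as a block. Ltbp2 was lower in each pair, at -1.24, -0.76 and -1.66, with a log2 fold change of -1.23 ± 1.01 (by edgeR, adjusted p = 0.876).

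Of 16 matrix proteases and inhibitors, 11 were lower in all pairs. Plat, tissue plasminogen activator, was at 58.1, 38.6 and 68.8 CPM in vehicle and 17, 9.66 and 15.3 CPM with halofuginone, with ratios of -1.74, -1.94 and -2.13 and a log2 fold change of -1.98 ± 0.33 (by edgeR, adjusted p = 0.767, and 0.00022 by DESeq2). Serpine2, which inhibits it, was at 256, 303 and 468 CPM in vehicle and 135, 135 and 76.2 CPM with halofuginone with -1.57 ± 0.35 (edgeR adjusted p = 0.767). TGF-beta signalling and contractile genes showed no common direction, with a median of -0.08 over 26. The ligand Tgfb3 and the receptor Tgfbr2 were lower without overlap, at -1.06 ± 0.35 and -0.82 ± 0.30 (edgeR adjusted p = 0.792 and 0.792). Acta2, smooth muscle actin, was at 2703, 126 and 742 CPM in vehicle and 4847, 159.6 and 199 CPM with halofuginone, higher in set A and tag 2 and lower in tag 4. Its log2 fold change of 0.54 ± 1.39 (by edgeR, adjusted p = 0.971) turned to -0.20 with the block.

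**Figure D3:**
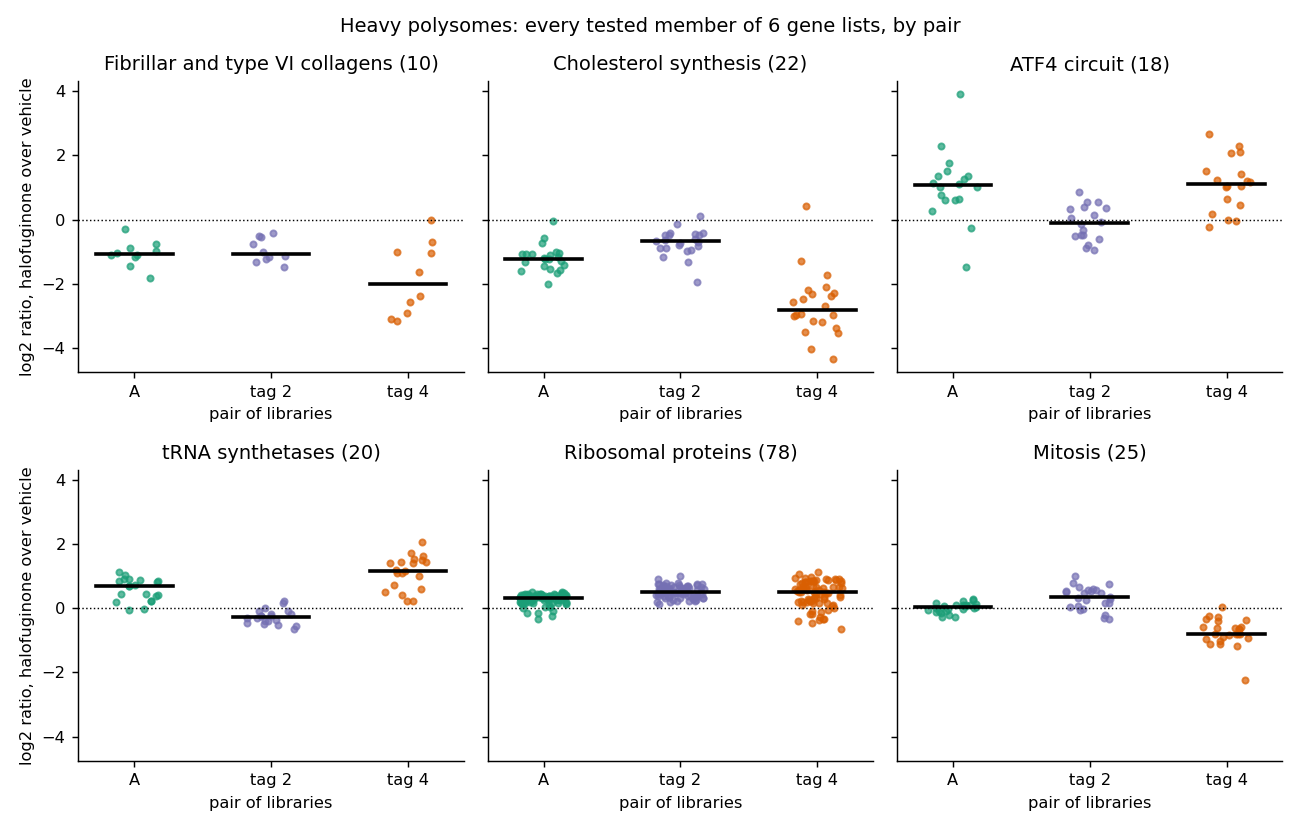
Log2 ratio of halofuginone over vehicle for every tested member of 6 gene lists (1 point a gene, black bar the median), by pair. Collagen and cholesterol members lay below 0 in all 3 pairs apart from 1 cholesterol gene in tag 2 and in tag 4, ribosomal protein members mostly above 0, and the medians of synthetases and mitosis genes had opposite signs in tag 2 and tag 4.

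Cholesterol synthesis was, of the 28 lists, the one with the largest share of members whose groups did not overlap. Of 22 genes, 21 were lower in all 3 pairs (24.7% of all genes) and in 17 the groups did not overlap (7.06%). The median was -1.34, and by pair -1.22, -0.67 and -2.82. The exception was Ggps1, which makes geranylgeranyl pyrophosphate for protein prenylation, with ratios of -0.03, 0.11 and 0.43. Lss (chromosome 10, 76531588 to 76557138), lanosterol synthase, was at 223, 196 and 196 CPM in vehicle and 76.4, 78.7 and 39.7 CPM with halofuginone. Vehicle varied little here, and every halofuginone library was lower, with a log2 fold change of -1.66 ± 0.31 (by edgeR, adjusted p = 0.767, and 0.000717 by DESeq2).

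Dhcr7, which catalyses the last step to cholesterol, was at 87.5, 91.7 and 117 CPM in vehicle and 41.6, 40.4 and 23.2 CPM with halofuginone and -1.49 ± 0.30 (edgeR adjusted p = 0.767). Tm7sf2, a sterol reductase, was at 39.5, 45.5 and 40.3 CPM in vehicle and 9.41, 11.3 and 1.51 CPM with halofuginone and -2.48 ± 0.62 (edgeR adjusted p = 0.792). Of 20 genes of sterol regulation and fatty acid synthesis, 12 were lower in all pairs, with a median of -0.68. Acss2, the acetyl-CoA synthetase, was at 19.8, 14.2 and 22.9 CPM in vehicle and 7.67, 3.91 and 3.55 CPM with halofuginone, and Scd2, a fatty acid desaturase, at 1535, 1526 and 1635 CPM in vehicle and 737, 836 and 397 CPM with halofuginone, both without overlap. Their log2 fold changes were -1.91 ± 0.39 and -1.25 ± 0.31 (edgeR adjusted p = 0.767 and 0.792, and 0.00313 and 0.0378 by DESeq2). The sterol element TCACNCCAC was found in 1 of 16 windows of the cholesterol list, that of Hmgcs1, against 1.37% of all 9054.

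Ribosomal protein mRNAs were mostly higher in heavy polysomes with halofuginone, by small amounts, and none was called by the unpaired edgeR test or by DESeq2. Of 78 tested (Rpl24 was not), 65 were higher in all 3 pairs (20.7% of all genes) and none was lower in all, and in 44 the groups did not overlap (5.4%). Ribosomal proteins are short, with a median of 151 amino acids. In the decile of genes with the shortest proteins, 34.9% were higher in all 3 pairs. The median was 0.43, with pair medians of 0.32, 0.51 and 0.50. Rps14 was at 537, 444 and 463 CPM in vehicle and 718, 766 and 883 CPM with halofuginone, with a log2 fold change of 0.71 ± 0.23 (by edgeR, adjusted p = 0.792). The 13 that were not higher in every pair included Rpl41, the shortest ribosomal protein, with ratios of -0.15, 0.23 and -0.65. Of 29 translation factors 16 were higher in all pairs and none lower, with a median of 0.27. Npm1, the nucleolar chaperone nucleophosmin, was at 1535, 848 and 1102 CPM in vehicle and 1824, 1609.8 and 2059 CPM with halofuginone, with 0.66 ± 0.28 (edgeR adjusted p = 0.797).

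Cell cycle genes divided. DNA replication genes were above 0 for 26 of 27, with a median of 0.41, and 15 were higher in all pairs. Rfc3 and Rfc4, clamp loader subunits, were at 87.4, 69.98 and 85.4 CPM in vehicle and 129.8, 103 and 129 CPM with halofuginone and at 38.1, 54.1 and 48 CPM in vehicle and 59.4, 71.7 and 68.4 CPM with halofuginone, without overlap, and at 0.57 ± 0.23 and 0.51 ± 0.23 (edgeR adjusted p = 0.792 and 0.811). Mitosis genes had a median of -0.06 over 25, made of 0.03 in set A, 0.35 in tag 2 and -0.79 in tag 4, where 24 were below 0. For ER chaperones and degradation factors, too, tag 4 went against the others. Their pair medians were -0.45, -0.36 and 0.57, and Hspa5, the chaperone BiP, had ratios of -0.68, -0.88 and 2.78. Calr, calreticulin, was lower in each, at 3220.5, 2003 and 2604 CPM in vehicle and 1072, 690.5 and 1703 CPM with halofuginone and -1.18 ± 0.37, and Ero1l, an ER oxidase, higher in each, at 50.3, 68.4 and 57.5 CPM in vehicle and 141, 119.6 and 304 CPM with halofuginone and 1.68 ± 0.39 (edgeR adjusted p = 0.792 and 0.767).

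Of 15 immediate early genes, 8 were lower in all pairs and the median was -0.56, with Egr2 at 9.48, 8.73 and 12.7 CPM in vehicle and 5.93, 4.31 and 3.22 CPM with halofuginone and Fosl2 at 219, 272 and 246 CPM in vehicle and 121, 171 and 81.7 CPM with halofuginone, both without overlap. Their log2 fold changes were -1.19 ± 0.35 and -0.98 ± 0.31 (edgeR adjusted p = 0.792 and 0.792). All 14 interferon response genes were below 0 and 10 were lower in every pair, with a median of -0.99. The RNA sensor Ddx58 was at 12.5, 8.73 and 18 CPM in vehicle and 5.23, 5.2 and 4.01 CPM with halofuginone, and -1.44 ± 0.35 (edgeR adjusted p = 0.792). Of 16 cytokines and chemokines, 8 were lower in all pairs and the median was -0.79. The complement factor C3 was at 201, 208 and 472 CPM in vehicle and 92.6, 89.4 and 63.1 CPM with halofuginone, and the chemokine Cxcl12 at 49.3, 32.8 and 177 CPM in vehicle and 19.6, 21.2 and 9.53 CPM with halofuginone, with log2 fold changes of -1.85 ± 0.40 and -2.36 ± 0.65 (edgeR adjusted p = 0.767 and 0.792). Both were lower in each pair with no overlap.

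The largest negative fold changes outside the lists were mostly those of genes with high vehicle values in tag 4. Cacna1g, a T-type calcium channel, was at 2.53, 0.717 and 20.4 CPM in vehicle and 0.498, 0.149 and 0.329 CPM with halofuginone, and Igsf10 at 29.9, 18 and 163 CPM in vehicle and 4.98, 8.12 and 5.13 CPM with halofuginone. Gdpd2, an X-linked phosphodiesterase, was at 6.39, 17.1 and 28.5 CPM in vehicle and 0.448, 4.36 and 0.0657 CPM with halofuginone, and Angpt4, an angiopoietin, at 6.07, 6.24 and 32.7 CPM in vehicle and 2.94, 1.59 and 0.657 CPM with halofuginone. Lrrc17, Rspo2, an activator of Wnt signalling, and Cfap100, of cilia, had log2 fold changes of -3.17 ± 0.96, -2.54 ± 0.71 and -2.46 ± 0.81 (edgeR adjusted p = 0.792, 0.792 and 0.792). The 10 largest fold changes on each side were named by a rule that required 1 sign in all pairs and no overlap, so neither is a result about them.

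Tag 4 spread the libraries most, and leaving it out of the blocked fit raised the count of calls. Fitted on set A and tag 2 alone, a choice made after the results were seen, edgeR with the block called 509 of 12442 genes (4.09%), 147 higher (1.18%) and 362 lower (2.91%). In the tag 4 pair, which that fit did not use, 137 of the 145 higher genes with a tag 4 value were above 0 and 351 of 361 lower ones were below 0. Over all genes 50.1% were above 0 in tag 4. Among 9769 genes of at least 5 CPM, tag 4 had the sign of set A in 68.5% and that of tag 2 in 59.5%. Agreement in sign was thus common among genes in general, and these counts are a description, not a test. The 362 included 17 of 22 cholesterol genes, 7 of 10 fibrillar and type VI collagens and 16 of 33 other matrix proteins, and in tag 4 17, 7 and 14 of these were below 0. By contrast, of 5 ER chaperone and degradation genes among the 362, only 2 were below 0 in tag 4. The 147 included Trib3, Atf5, Ddit4 and Vldlr of the ATF4 circuit and Aldh1l2, Pycr1, Cth and Gpt2 of amino acid synthesis. None of the 20 synthetases was among them, which is near the share of 1.18% over all genes. By leaving out set A the block called 1 gene, Car6, and by leaving out tag 2 it called 13.

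**Figure D4:**
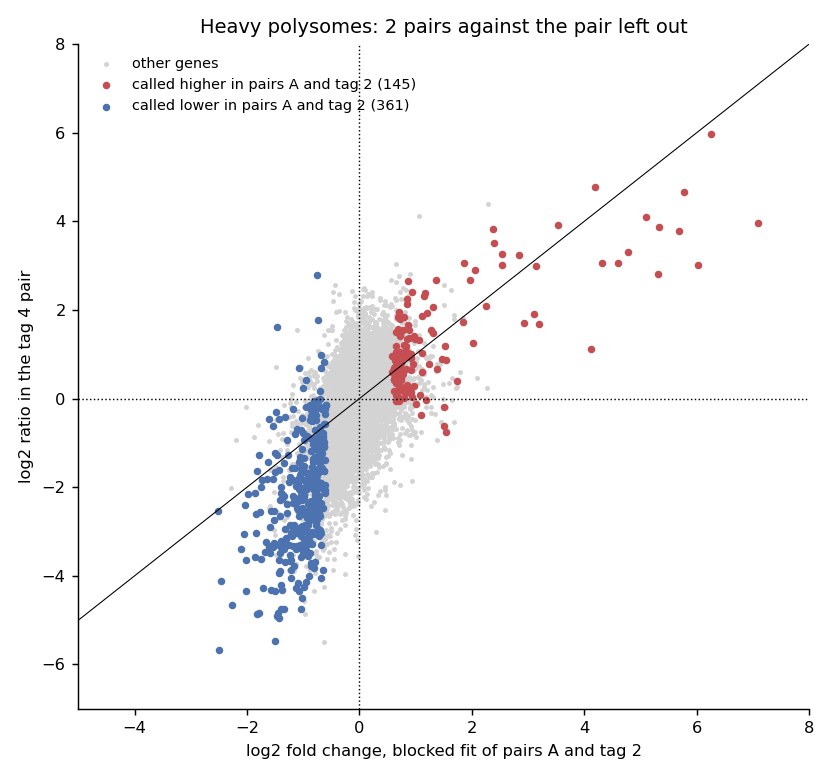
Log2 fold change in the blocked fit of the set A and tag 2 pairs (horizontal) against the log2 ratio in the tag 4 pair (vertical), 1 point a gene. Genes called in these pairs are coloured, higher red and lower blue. The diagonal marks equal values. Of the coloured genes 137 of 145 higher ones were above 0 and 351 of 361 lower ones were below 0 in tag 4.

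Amino acid make-up and length were compared with the fold changes as a description, across 11044 genes with a coding sequence, which are not independent. Proline share had a rank correlation of -0.0996 with the log2 fold change, and of -0.0434, -0.105 and -0.0736 by pair. Without the collagens, a set left out after the data were seen, it was -0.0957 over 11023 genes. The decile of genes with the most proline, at a median of 11.2%, had a median log2 fold change of -0.03, against 0.08 in the decile with the least, at 2.53%. Of 22 features compared (20 amino acids, length and GC content), 6 had a larger correlation in size than proline: the shares of lysine (0.223), glutamate (0.141), tryptophan (-0.125), leucine (-0.122) and glycine (-0.105), and GC content of the coding sequence (-0.211, but 0.000255 in set A). Glutamate, the other amino acid that Eprs loads, ran opposite to proline, at 0.0714, 0.12 and 0.124 by pair. Protein length correlated differently in each pair, at -0.15 in set A, -0.332 in tag 2 and 0.125 in tag 4. Genes of the shortest decile (median 138 amino acids) had median ratios of 0.05, 0.32 and -0.04, and those of the longest decile -0.14, -0.13 and 0.25.

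**Figure D5:**
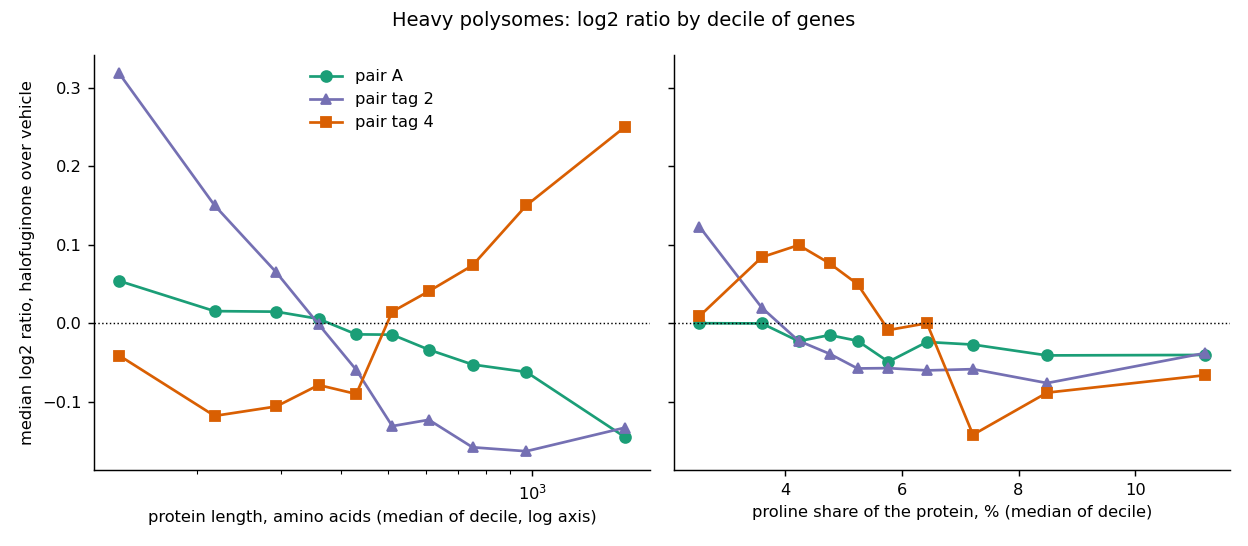
Median log2 ratio of halofuginone over vehicle in deciles of genes by protein length (left, log axis) and by proline share of the protein (right), for the set A, tag 2 and tag 4 pairs. By length, the median went from 0.32 in the shortest decile to -0.13 in the longest in tag 2, from -0.04 to 0.25 in tag 4 and from 0.05 to -0.14 in set A.

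The heavy polysome differences were compared with those of light polysomes and total RNA by an interaction test in edgeR. No gene passed this test between heavy and light polysomes (0 of 13141, with 13, or 0.0989%, at an unadjusted p under 0.05) or between heavy polysomes and total RNA (0 of 13459, with 128, or 0.951%, at an unadjusted p under 0.05). Nothing here is therefore shown to be particular to heavy polysomes, and these tests do not show that the fractions act alike. Slc7a11 had log2 ratios of 2.71, 1.27 and 2.77 in the light pairs of the same tags, and Col1a1 of -0.81, -0.89 and -1.91. The low ATF4 circuit in tag 2 was seen in light polysomes as well, with list medians of 0.66, -0.32 and 0.72, and synthetase medians of 0.57, -0.01 and 1.07. Total RNA went the other way: in its tag 2 pair the ATF4 circuit had a median of 2.0, with 17 of 18 genes above 0, and the synthetases one of 1.28, with 19 of 20 above 0. Those medians were 0.24 and 0.04 in the set A pair of total RNA and 1.9 and 1.24 in its tag 3 pair. By these total RNA pairs Slc7a11 was at 1.298, 3.85 and 4.10 and Col1a1 at -0.82, -1.32 and -1.58. Whether an equal tag marks the same culture in total RNA and in polysomes is not stated in the labels.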

How the data were processed

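RNA of 6 heavy polysome libraries, out of 24, was compared. The authors deposited whole-number counts per gene symbol, in 1 table whose headers name treatment, gradient fractions and a tag. The submitters' processing notes list the genome build GRCm38.p5 and the tools STAR 2.5.2b, Trimmomatic 0.36, featureCounts and Subread 1.5.0p3. What each did, and the strand setting, is not given in the sources used here. Overlapping genes and those with near-identical copies, such as ribosomal protein genes, are therefore less certain. The kit selects polyadenylated RNA, per the labels' protocols. The table held 0 columns of other samples and 49568 symbols, and 97.7% of the 12222 tested were found in GENCODE M21.

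Counts were tested with edgeR 4.0.16 in R 4.3.3 (quasi-likelihood test, TMM scaling, default expression filter, Benjamini-Hochberg at 0.05), without a block. DESeq2 1.42.0 was an alternative. CPM are TMM-scaled, and pair log2 ratios add 0.5 CPM. Fold changes are given with SE. The scripts were tested on simulated data. Headers gave each column's group but not its sample. Whether tags pair the libraries was checked by correlating their deviations from the group means across genes. Same-tag libraries gave 0.764, 0.705 and 0.36, and the highest different-tag value was -0.0227. The tags were taken to pair them, although no label says so. Deviations cancel out within a group, so high same-tag values pull the different-tag values down. Set A also spans other gradient fractions. The check therefore cannot show that libraries of 1 tag share a culture.

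Named were 16 fixed genes, the 10 largest fold changes on each side (mean of at least 5 CPM in 1 group, 1 sign in all pairs, no overlap), up to 2 genes per list by smallest p, and genes called with the block. A few genes that these rules name are not reported here. Other named genes were chosen after their values were seen. Members, lists and rules were chosen with earlier results of these data known. Of 636 list entries, 591 passed the expression filter.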

Additional observations from a re-analysis of the deposited data

How the results depend on the processing

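No gene passed the unpaired edgeR test, and it called 0 genes as well with median-of-ratios factors, the header set as a covariate, numbered tags only, a minimum of 5 CPM in 3 libraries and each library or pair left out (0 to 0). Other settings gave more: 2 genes with the replicate block, 78 with DESeq2, 105 with no filter and 1 with all 24 libraries in 1 fit. With the block and set A, tag 2 or tag 4 left out, settings added after the data were seen, it called 1, 13 and 509. The block changed no other call. The differences of differences had 0 calls, also with the block, and 0 to 1 (light) or 0 to 3 (total RNA) with a library left out: 1 in each without the set A vehicle heavy library, and 3 without the set A halofuginone total library.

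Of 1741 recomputed values of the 88 named genes 25 reversed, none of them of a called gene, and of 560 list medians 36 moved. The cause was not tested. Fn1 was at 0.12 with the block, 0.32 with the header set, 0.71 with numbered tags only, 0.0087 in 1 fit of all libraries, and 0.45 and 0.44 with the block without set A or tag 2. Acta2 was at -0.20, -0.60 and -1.27 in the first 3 of these settings and at -0.78 and -0.51 in the last. With libraries or pairs left out the lowest and highest log2 fold changes were -0.64 and 1.32 for Fn1, -2.72 and 2.0 for Acta2, -0.044 and 1.19 for Atf4, -0.17 and 2.18 for Ddit3, -2.76 and 0.36 for Ltbp2, -0.19 and 0.95 for Ccnf and -1.32 and 0.64 for Kif20a.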

Other observations

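Other gene groups on heavy polysomes were described in the same way. Glutathione and Nrf2 target genes had a median log2 fold change of 0.43 over 16, and 8 were higher in all 3 pairs. Gclm, the regulatory subunit of the enzyme that starts glutathione synthesis, was at 136, 132 and 84.2 CPM in vehicle and 215, 181 and 222 CPM with halofuginone, with no overlap and a log2 fold change of 0.81 ± 0.27 (by edgeR, adjusted p = 0.792). Osgin1, a growth inhibitor induced by oxidative stress, went the other way, at 12.9, 14.5 and 26.5 CPM in vehicle and 11, 9.81 and 10.6 CPM with halofuginone and -0.78 ± 0.33 (edgeR adjusted p = 0.797). Of the snoRNA host RNAs, which are spliced, short-lived transcripts, 3 of 13 were higher and 3 lower in all pairs. Gas5 and Snhg8 were at 0.81 ± 0.36 and 0.83 ± 0.32 (edgeR adjusted p = 0.808 and 0.792). The nuclear noncoding RNA Neat1 was at 13.3, 55.9 and 63.6 CPM in vehicle and 8.87, 12.8 and 13.9 CPM with halofuginone, with the set A vehicle library close to the halofuginone libraries of tag 2 and tag 4, and at -1.90 ± 0.54 (edgeR adjusted p = 0.792). Meg3, an imprinted noncoding RNA, was at -1.70 ± 0.70 (edgeR adjusted p = 0.792).

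Of 18 p53 targets, 3 were higher and 2 lower in all pairs, with a median of 0.21. Btg2 and Sesn1 were lower in each pair, at -0.99 ± 0.43 and -0.87 ± 0.50 (edgeR adjusted p = 0.808 and 0.846). Nuclear genes of oxidative phosphorylation had a median of 0.03 over 34, with Uqcrq, a subunit of complex III, at 144, 193 and 205 CPM in vehicle and 249, 398 and 353 CPM with halofuginone and 0.88 ± 0.28, and Cycs, cytochrome c, at 0.59 ± 0.26 (edgeR adjusted p = 0.792 and 0.808). Mitochondrially encoded mRNAs were at medians of -0.21, 1.06 and 1.02 by pair over 7 genes, with mt-Cytb at 1367, 1173 and 1286 CPM in vehicle and 1469, 2826 and 2762 CPM with halofuginone and 0.88 ± 0.30, and mt-Nd6 at 1.35 ± 0.71 (edgeR adjusted p = 0.792 and 0.846). They are made and translated inside mitochondria, and took 0.276% to 0.746% of the heavy counts. Autophagy and lysosome genes were at a median of -0.11 over 23, with Ctsb, a cathepsin, at -0.51 ± 0.27 and Tfeb, their transcription factor, at -0.99 ± 0.44 (edgeR adjusted p = 0.846 and 0.808). Among the mitosis genes Ccnf was higher and Kif20a lower in all 3 pairs, at 0.32 ± 0.58 and -0.22 ± 0.72 (edgeR adjusted p = 0.959 and 0.980). Irf7, a regulator of interferon genes, had low counts, at 0.644, 1.26 and 3.003 CPM in vehicle and 0.299, 0.297 and 0.131 CPM with halofuginone, and the minor collagens Col27a1 and Col15a1 were at 6.39, 3.25 and 12.2 CPM in vehicle and 3.34, 1.54 and 2.3 CPM with halofuginone and at 0.736, 0.506 and 1.5 CPM in vehicle and 0.249, 0.198 and 0.394 CPM with halofuginone. The elongation factor subunit Eef1b2 was higher in each pair, at 1301, 878 and 903 CPM in vehicle and 1542, 1233 and 2038 CPM with halofuginone, with overlap between groups.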
